A study of Mus musculus with 4 samples.

Results

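The cells described here were the Chil3 classical monocytes of subcutaneous Lewis lung carcinoma (LLC) tumors, 1327 of the 55058 barcodes kept from 4 single-cell RNA libraries (2.41%). They were chosen by a gate on unique molecular identifiers (UMIs), the tags that count single RNA molecules. A barcode was kept with at least 200 genes and at most 20% mitochondrial UMIs, and it entered the gate with at least 3 UMIs of Chil3, at least 1 of Ly6c2, Ccr2 and Plac8 together, at most 1 of the C1q genes (C1qa, C1qb, C1qc), at most 1 of the neutrophil genes Csf3r and Retnlg and at most 1 of the tumor cell gene Rhox5. Expression therefore selected the cells, and the levels of these 10 genes are given as a description without a test.

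LLC is a transplantable mouse lung carcinoma line, grown here under the skin of female C57/BL6N mice of 6 to 8 weeks. The mock-treated group (NT) was 1 library that mixed 3 tumors, and the irradiated group (RT) was 3 libraries (RT1, RT2, RT3) of 1 tumor each, given 24 Gy in 3 fractions of 8 Gy and taken at 72 h. Values written for RT1 to RT3 are in the order RT1, RT2, RT3. All groups carried the same line and no engineered allele, and the control differed from RT by pooling as well as by treatment. Because NT was 1 library, no test between NT and RT was made, and the intervals printed for NT cover counting error only.

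The monocytes numbered 22 in NT, 285 in RT1, 381 in RT2 and 639 in RT3. Their median depth was 1765 UMIs in NT, 1739 in RT1, 2503 in RT2 and 1426 in RT3, below the median of all kept barcodes in each library (5709, 3864, 5199 and 4158 UMIs). Summed over cells they gave 35328 UMIs in NT against 528815, 1032505 and 1013220 in RT1 to RT3. At the depth of NT, 3 UMIs are worth 84.9 counts per 1000000 UMIs (CPM), so genes under that level in NT cannot be told from absent ones. No barcode was shared between libraries among the monocytes, whereas 175 to 274 were shared by each pair of libraries among all kept barcodes. RT2 stood apart as deposited, since 14993 of its 14994 barcodes met the limits on genes and mitochondrial UMIs. Its highest mitochondrial share was 12% against 91.5% to 97.0% in the other libraries, and it listed fewer genes. Whether RT2 was filtered before deposit is not given in the sources used here, and the part of this in its share and depth was not tested.

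Classical monocytes are made in the bone marrow, leave it through the chemokine receptor Ccr2 and circulate with high Ly6c2 before they enter inflamed tissue. In tumors they become macrophages or monocyte-derived antigen-presenting cells, losing Ly6c2 on the way and gaining complement, lipid-handling and MHC class II genes. Chil3 (Ym1) is a secreted chitinase-like protein without enzyme activity, known in alveolar and alternatively activated macrophages, in neutrophils and in a subset of classical monocytes.

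Because Chil3 defined the population, the start of its gene is printed with the one match to AGGAAGT in capitals, a core bound by Ets factors such as PU.1, the master factor of myeloid cells. The 127 bases are from RefSeq (GRCm38.p6, chr3:106167558-106167684, minus strand, 120 bases before the start site to 7 after it), and the match reads ACTTCCT because it lies on the other strand.
Chil3: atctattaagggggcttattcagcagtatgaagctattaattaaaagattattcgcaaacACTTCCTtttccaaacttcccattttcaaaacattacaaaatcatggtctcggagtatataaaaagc
Of 32851 RefSeq promoters of 300 bases (250 before and 50 after the start), 9.35% hold AGGAAGT on either strand. Among the gate genes, Ly6c2 holds 2 matches, and no match was found for Ccr2 or Plac8. A match is a description of letters and not a measured binding site.

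The levels of the gate genes show how the cells met the rule. Chil3 stood at 3482 CPM in NT and at 3150, 2907 and 6018 CPM in RT1 to RT3. RT3 was the high library and the other 3 lay close together. Ly6c2, a surface marker of classical monocytes, was 3482 CPM in NT against 2958, 3057 and 3442 CPM in RT1 to RT3, almost flat across libraries. Plac8 was 3991 CPM in NT against 1938, 2702 and 2158 CPM in the RT libraries, so NT was the highest. Ccr2, the receptor for Ccl2, was 481 CPM in NT against 749, 603 and 562 CPM in RT1 to RT3, with NT the lowest. Of all the cells, 89.8% held a Ly6c2 UMI, 84.5% a Plac8 UMI and 57.5% a Ccr2 UMI, and 44.6% held all 3.

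The levels of 15 further classical monocyte markers were read. All 15 were detected, with summed levels of 26891 CPM in NT against 29099, 23990 and 29732 CPM in RT1 to RT3, and lysozyme (Lyz2) was the most abundant. In C1q macrophages (at least 5 C1q UMIs, Chil3 at 0) all 15 were detected too. Their sums there were 20790, 33082, 28558 and 29094 CPM in NT, RT1, RT2 and RT3. The sum is therefore no check of the name, and the markers are compared between populations below. Ms4a6c, another monocyte marker, was 1387 CPM in NT against 1067, 1240 and 1212 CPM in RT1 to RT3. A UMI of the myeloid adaptor genes Tyrobp or Fcer1g was present in 1308 cells (98.6%), and 28 cells (2.11%) held a UMI of Col1a1, Col1a2 or Plvap, which mark fibroblasts and endothelium.

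Markers of other cell types were low. Of 8 alveolar macrophage markers, 4 were at 0 in every library, among them the defining Siglecf and Marco. All 5 markers of mast cells, basophils and eosinophils were at 0. The dendritic cell genes Flt3 and Cd209a summed to 1 UMI in RT3 and none elsewhere. Of the dendritic cell list, 4 of 9 genes were at 0, and Ccr7 led with 7 NT UMIs that all came from 1 cell. T and NK cell genes summed to 84.9 CPM in NT and to 3.78, 7.75 and 37.5 CPM in RT1 to RT3, led by Trac. Of 7 genes of early granulocyte and monocyte precursors, Cd34 was the most abundant, and they summed to 28.3 CPM in NT against 5.67, 22.3 and 7.90 CPM in the RT libraries.

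Neutrophil markers were present at low level and differed by library. The 14 genes summed to 255 CPM in NT against 802, 1164 and 800 CPM in RT1 to RT3, with the decoy receptor Il1r2 the most abundant at a mean of 292 CPM, and 3 of the 14 were at 0. S100a8, a calcium-binding protein of neutrophils and of immature monocytes, was at 0 UMIs in NT against 123, 340 and 132 CPM in RT1 to RT3. RT2 was the highest library. Its partner S100a9 was 28.4, 90.1 and 15.8 CPM in the RT libraries and the neutrophil chemokine receptor Cxcr2 5.67, 8.72 and 3.95 CPM, both at 0 UMIs in NT. The part of neutrophil RNA in these levels was not tested.

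Of the 1858 barcodes with at least 3 Chil3 UMIs, 1327 met the whole gate, and the C1q step removed the most (277). Free RNA could lend a Chil3 UMI to other cells, and this was read in tumor cells. Here and below, tumor cells were barcodes with at least 3 UMIs of Rhox5 and no UMI of Tyrobp or Fcer1g. A Chil3 UMI was held by 0.0168% of them in NT against 0.371%, 0.866% and 1.14% in RT1 to RT3. Their median depths were 8258, 6561, 9126 and 7074 UMIs. Tumor cells with 3 or more Chil3 UMIs numbered 0, 1, 0 and 1. Leaving out barcodes with a myeloid UMI can lower these shares, and by how much was not tested. The other chitinase-like genes were nearly silent in the monocytes, with 1 UMI of Chil1 in all libraries together and Chid1 at 0, 5.67, 9.69 and 7.90 CPM in NT, RT1, RT2 and RT3.

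The threshold at 3 Chil3 UMIs cut through a continuous range. The cells just inside it, 246 with exactly 3 UMIs (18.5% of the population, whose median was 6 and maximum 71), were set beside 343 cells with 2 UMIs that met every other criterion. Ly6c2 was 2655 CPM in the cells just outside, 2523 CPM just inside and 2761 CPM in the 204 cells with 4 UMIs. The MHC class II gene H2-Aa was 909 CPM just outside, 495 CPM just inside and 506 CPM at 4 UMIs, and the lipid carrier Apoe was 83.8, 34.6 and 35.8 CPM. Also inside by a single UMI were 134 cells with 1 C1q UMI, 110 with 1 Csf3r or Retnlg UMI and 122 with 1 Rhox5 UMI.

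The share of Chil3 monocytes was higher in every RT library than in NT. It was 0.221% of kept barcodes in NT (95% exact Clopper-Pearson interval 0.138% to 0.334%), 1.90% in RT1 (1.68% to 2.13%), 2.54% in RT2 (2.30% to 2.81%) and 4.24% in RT3 (3.93% to 4.58%). The RT mean was 2.89% ± 1.21 (SD, n = 3), which is 13.1 times the NT share and 8.60 to 19.2 times it by library. The difference was 2.67 percentage points, and 2.85 without RT2. No interval of an RT library overlapped that of NT, nor those of the other RT libraries. The Chil3 criterion alone passed 22 barcodes in NT and 405, 576 and 855 in RT1 to RT3. All 22 of NT met the remaining criteria, whereas the RT libraries lost cells at the C1q step (1778 to 1501 over all libraries) and at the Rhox5 step (1462 to 1327).

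**Figure D1:**
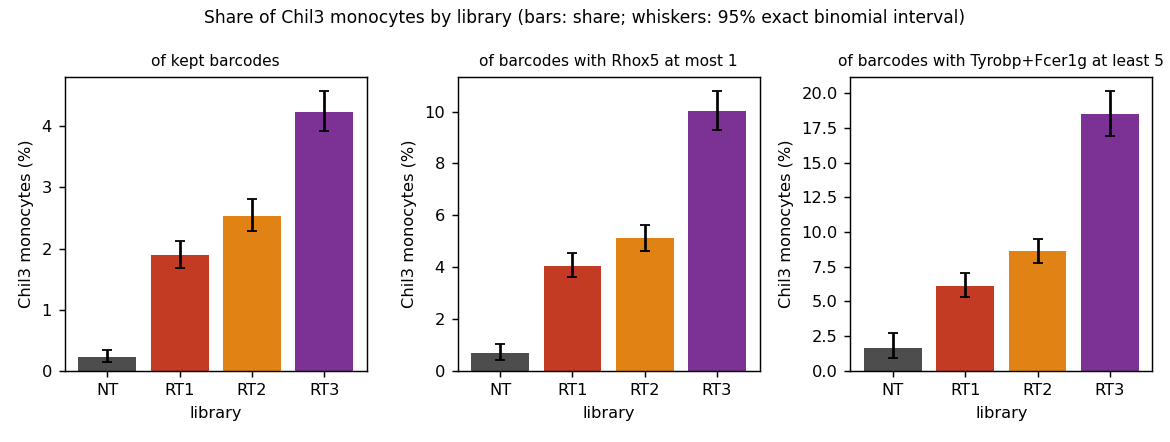
Share of Chil3 monocytes in each library as bars (percent of barcodes, axis from 0), over all kept barcodes, over barcodes with at most 1 Rhox5 UMI and over myeloid barcodes, with 95% exact binomial intervals as whiskers. NT is the lowest bar and RT3 the highest under each denominator.

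Other denominators kept NT lowest, with a smaller ratio. Over barcodes with at most 1 Rhox5 UMI the share was 0.694% in NT against 6.4% ± 3.19 (SD, n = 3) in RT. Over barcodes with at least 5 UMIs of Tyrobp and Fcer1g, taken as myeloid, it was 1.68% in NT and 11.1% ± 6.53 in RT, 3.66 to 11.0 times the NT share by library. Depth was the other quantity that differed between libraries. With each barcode thinned to 2000 UMIs before the gate, which leaves out shallower barcodes, the share was 0.0504% in NT against 0.958%, 2.04% and 1.32% in RT1 to RT3 (mean 1.44% ± 0.551), so NT was again lowest but RT2, not RT3, was the highest. In these dissociated tumors, fewer monocytes and a larger number of other cells per monocyte cannot be told apart.

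Other myeloid populations did not follow the same order. Monocytes with Thbs1 and without Chil3 (at least 3 UMIs of Thbs1, Chil3 at 0, the other criteria as above) made up 1.95% of NT and 3.17%, 3.02% and 2.30% of RT1 to RT3. C1q macrophages (at least 5 C1q UMIs, Chil3 at 0) made up 6.01% of NT and 15.1%, 14.9% and 7.36% of the RT libraries. Neutrophils (at least 3 UMIs of Csf3r and Retnlg) numbered 2 in NT and 103, 170 and 59 in RT1 to RT3. RT3, with the largest share of Chil3 monocytes before thinning, had the smallest RT share of the other 3 populations. The Thbs1 and C1q gates admit no Chil3 UMI, so cells with Chil3 leave them and their shares are not independent of Chil3. The part of this in their order was not tested. Over all kept barcodes Chil3 was 2.92 CPM in NT against 38.6, 49.1 and 102 CPM in the RT libraries, and Ly6c2 was 20.9 CPM in NT against 86.5, 121 and 97.8 CPM in RT1 to RT3.

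Within the monocytes, Hspa1a, Hspa1b, Il1b and Nr4a1 were lower in all 3 RT libraries than in NT, while Fth1, Ccl6, S100a4 and Cdkn1a were higher. A gene was placed past a rule of size when its CPM differed at least 2-fold from NT in the same direction in all 3 RT libraries (a log2 ratio of at least 1 with 5 CPM added to both). Of 2835 genes with a mean of at least 50 CPM, 360 were higher (12.7%) and 126 lower (4.44%), and the median log2 ratio over all genes was 0.01. The NT sum was small, and 2229 of these genes had fewer than 10 UMIs in it. All 125 genes at 0 UMIs in NT fell among the higher ones. In a check chosen after the data were seen, 68 of the higher and 72 of the lower genes had every RT level outside the 95% Poisson interval of NT. When the 4 sums were scaled by TMM, 570 genes were higher and 62 lower and the median log2 ratio moved to 0.31, so the directions below are relative to total UMIs.

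Hspa1a, Hspa1b and 3 of their co-chaperones were lower in each RT library. Hspa1a, an inducible Hsp70 chaperone, was 4472 CPM in NT (158 UMIs, 95% Poisson interval 3802 to 5227) against 1108, 1567 and 1388 CPM in RT1 to RT3. Hspa1b, its near-identical copy, was 3368 CPM in NT (119 UMIs) against 363, 533 and 563 CPM in the RT libraries. NT stood above every RT library for both, with mean log2 ratios of -1.73 ± 0.25 for Hspa1a and -2.81 ± 0.34 for Hspa1b (SD, n = 3). The co-chaperone Dnajb1 was 623 CPM in NT against 117, 178 and 132 CPM in RT1 to RT3. Dnaja1, another Hsp40, was 1557 CPM in NT against 359, 382 and 424 CPM in RT1 to RT3. Bag3, the Hsp70 co-factor of stress, was 538 CPM in NT against 117, 118 and 169 CPM in the RT libraries. Its log2 ratio turned to 0.12 with Chil3 of at least 5 UMIs. After thinning to 2000 UMIs it was 4.99, on 4 NT cells with 8000 UMIs, too few to decide a direction. The NT levels were spread over cells for Hspa1a (14 of 22 cells, the largest cell holding 52 UMIs) and for Dnaja1 (17 cells), but Bag3 came from 5 cells, 1 of which held 15 of its 19 UMIs. Of the 13 immediate early and heat shock genes listed, Hspa1a, Hspa1b and Dnajb1 were past the rule, all lower (3 of 13, where 4.44% of all genes were lower), and the list's median log2 ratio was -0.74. Hsp90aa1 had -1.15 and Hspa8 -0.64, both short of the rule.

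Because both copies were lower, the starts of Hspa1a and Hspa1b are printed with the match to GAANNTTC, a unit of the element bound by heat shock factor, in capitals. Both stretches are from RefSeq (GRCm38.p6, minus strand, 164 to 36 bases before the start site), at chr17:34972193-34972320 for Hspa1a and chr17:34959275-34959402 for Hspa1b.
Hspa1a: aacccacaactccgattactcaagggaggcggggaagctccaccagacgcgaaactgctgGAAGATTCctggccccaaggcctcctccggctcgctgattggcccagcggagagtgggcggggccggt
Hspa1b: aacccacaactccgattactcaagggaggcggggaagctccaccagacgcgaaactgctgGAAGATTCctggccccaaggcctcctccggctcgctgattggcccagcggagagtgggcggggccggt
The printed 128 bases are identical, and the full 300 bases share 296 positions (98.7%) in this window. The transcripts of these near-identical genes were not compared here, and each level is uncertain where counting split reads between them. The motif GAANNTTC, searched on both strands, is found in 7.86% of RefSeq promoters. Bag3 has 1 match and Dnajb1 none in its window.

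Il1b, Nr4a1, Tnfaip3, Cxcr4 and Vegfa were lower too. Il1b, the inflammasome-dependent cytokine, was 13445 CPM in NT (475 UMIs, 12263 to 14711) against 4185, 4483 and 4214 CPM in RT1 to RT3. NT stood far above RT libraries that hardly differed from each other (mean log2 ratio -1.65 ± 0.05, SD, n = 3). Nr4a1, an immediate early nuclear receptor that also marks non-classical monocytes, was 8265 CPM in NT against 3432, 3903 and 2967 CPM in the RT libraries. Tnfaip3, the A20 brake on NF-kB, was 2321 CPM in NT against 843, 984 and 763 CPM. The chemokine receptor Cxcr4, which holds monocytes in the marrow, was 1274 CPM in NT against 231, 294 and 281 CPM in RT1 to RT3. The angiogenic factor Vegfa was 991 CPM in NT against 393, 292 and 292 CPM. Other lower genes were Myd88, Tap2, Mapkapk2, Tsc22d1 and Cks2, each with 11 to 30 UMIs in NT. Cks2 had a log2 ratio of 3.41 after thinning to 2000 UMIs, which left 4 NT cells, too few to decide a direction. Of 16 cytokine and NF-kB genes tested, 3 were lower and the receptor antagonist Il1rn was higher, where 4.44% of all genes were lower and 12.7% higher. With Chil3 of at least 5 UMIs, which left 10 NT cells, the mean log2 ratio was -0.97 for Il1b, -0.31 for Tnfaip3, -0.51 for Cxcr4, -1.04 for Nr4a1 and -1.10 for Hspa1a, and none of these passed the rule. With TMM factors Nr4a1 had -0.97 and Tnfaip3 -1.12, also short of it. Thinned to 2000 UMIs, Hspa1a had -0.32, Tnfaip3 -0.41 and Cxcr4 -1.22, short of the rule, and Il1b had -2.41.

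Fth1, Ccl6 and S100a4 were higher at levels that gave more than 50 UMIs in NT. Fth1, the ferritin heavy chain, was 2632 CPM in NT (93 UMIs, 2125 to 3225) against 7470, 5816 and 7096 CPM in RT1 to RT3. Ccl6, a monocyte chemokine, was 2293 CPM in NT (81 UMIs) against 5664, 5228 and 5636 CPM. S100a4, a regulator of motility, was 1557 CPM in NT (55 UMIs) against 3886, 3551 and 3778 CPM. All RT libraries were more than 2-fold above NT for the 3 genes, with mean log2 ratios of 1.36 ± 0.19, 1.26 ± 0.06 and 1.26 ± 0.07 (SD, n = 3). Cdkn1a, the p53 target that encodes the cell cycle inhibitor p21, was 170 CPM in NT (6 UMIs) against 756, 761 and 547 CPM in the RT libraries. It was the only 1 of 6 p53 targets tested that passed the rule, where 12.7% of all genes were higher. The median log2 ratio of the 6 was 0.48.

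Csf1r, Fcgr3 and some chemokine genes with low NT counts were higher, and 12.7% of all genes were. Csf1r, the receptor for the growth factor of macrophages, was 198 CPM in NT (7 UMIs) against 794, 559 and 452 CPM in RT1 to RT3. Fcgr3, an activating Fc receptor, was 283 CPM in NT (10 UMIs) against 826, 886 and 630 CPM. Of 10 Fc and complement genes tested, Fcgr3, C3ar1, Cfp and Cfb were past the rule, the last 3 on 1, 3 and 1 UMIs in NT, so that they met the filter on mean level mainly through RT. Among 13 chemokine ligands tested, Ccl6, Cxcl3, Ccl12 and Ccl24 were higher. Cxcl3, Ccl12 and Ccl24 had 2, 0 and 1 UMIs in NT and met that filter the same way, so the counts of both lists support nothing. Of 5 chemokine receptors tested, Cxcr4 was lower (4.44% of all genes were), and Ccr7 was too, but on 7 NT UMIs of a single cell. Ccl12, a ligand of Ccr2, was at 0 UMIs in NT against 454, 574 and 284 CPM in RT1 to RT3. Its NT limit was 84.9 CPM by a floor of 3 counts and 104 CPM by the Poisson interval. Cxcl3, a neutrophil attractant, had 2 UMIs in NT (6.86 to 205 CPM) against 860, 570 and 1015 CPM in the RT libraries. Ier3, an early response gene, had 1 UMI in NT (at most 158 CPM) against 1235, 1831 and 579 CPM. Spp1, the matrix protein osteopontin, had 3 UMIs in NT (17.5 to 248 CPM) against 643, 277 and 738 CPM. Of the 26 interferon response genes tested, Ifit1, Oasl1 and Gbp7 were higher with 3, 0 and 1 UMIs in NT, a share near that of all genes.

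**Figure D2:**
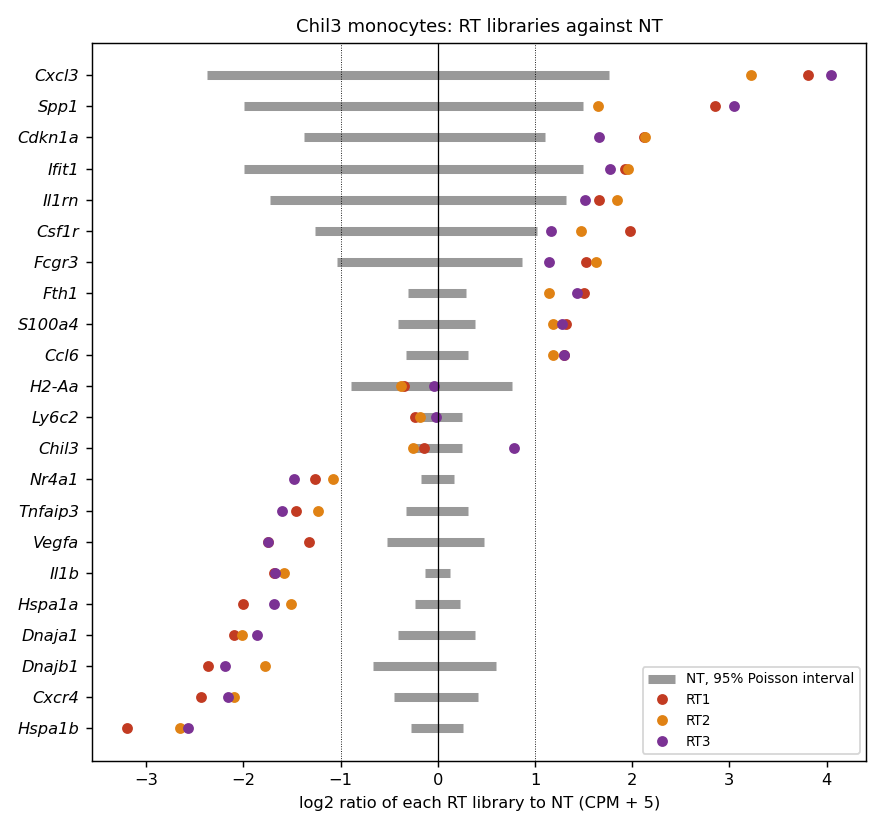
Log2 ratio of each RT library to NT (CPM with 5 added) for named genes of the Chil3 monocytes, 1 point a library. Hspa1a, Hspa1b, Dnajb1, Dnaja1, Cxcr4, Il1b and Nr4a1 lie left of 0 in all 3 libraries, Ly6c2 lies near 0, and Fth1, Ccl6, S100a4 and Cdkn1a lie right of 0.

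Classical monocyte markers and MHC class II genes gave few calls. H2-Aa was 368 CPM in NT (13 UMIs, 196 to 629) against 287, 282 and 358 CPM in the RT libraries, within the NT interval. Of 4 MHC class II genes tested, none passed the rule. Thbs1, thrombospondin-1, was 14436 CPM in NT against 11051, 6342 and 12127 CPM in RT1 to RT3, and only RT2 was 2-fold lower. The matrix genes Fn1 (849 CPM in NT against 1747, 1197 and 1617 CPM in RT) and Vcan (510 CPM in NT against 1203, 705 and 1018 CPM) were higher in each RT library without passing the rule in all. Of 14 classical monocyte markers tested, 1 passed (S100a4), at a median log2 ratio of -0.07. Of 16 macrophage markers, 9 were tested and Mrc1, Pf4, Adgre1 and Csf1r were higher, where 12.7% of all genes were. Mrc1, Pf4 and Adgre1 had 1, 0 and 1 UMIs in NT and met the filter mainly through RT, so this count supports nothing. Of 4 neutrophil markers tested, Il1r2, Lcn2 and S100a8 were higher on 4, 0 and 0 UMIs in NT, a count that supports nothing because Lcn2 and S100a8 met the filter through RT, and the part of neutrophil RNA in this was not tested.

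The same genes were read in other populations of the same libraries, which share the 1 NT library, so their values stand side by side without a test. Hspa1a had a log2 ratio of RT to NT of -1.73 in Chil3 monocytes, -1.64 in Thbs1 monocytes without stromal UMIs, -1.08 in C1q macrophages and -0.25 in tumor cells. Il1b had -1.65, -1.69 and -1.66 in the 3 myeloid populations in that order. Fth1 had 1.36, 0.87 and 1.09 in the myeloid populations and 1.41 in tumor cells, where it was 2572 CPM in NT against 6678, 7203 and 6603 CPM in RT. S100a4 had 1.26, 1.46 and 1.47 and, in tumor cells, 1.14. The MHC class II gene H2-Aa had -0.26 in Chil3 monocytes, -1.82 in Thbs1 monocytes and -2.23 in C1q macrophages, where it was 7392 CPM in NT against 1085, 1811 and 1987 CPM in RT1 to RT3. Cdkn1a had 1.97 in Chil3 monocytes, 0.65 in Thbs1 monocytes, 2.31 in C1q macrophages and 0.74 in tumor cells. A pool of 3 tumors and 3 single tumors were compared in all of them, and library, pooling and treatment cannot be told apart.

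**Figure D3:**
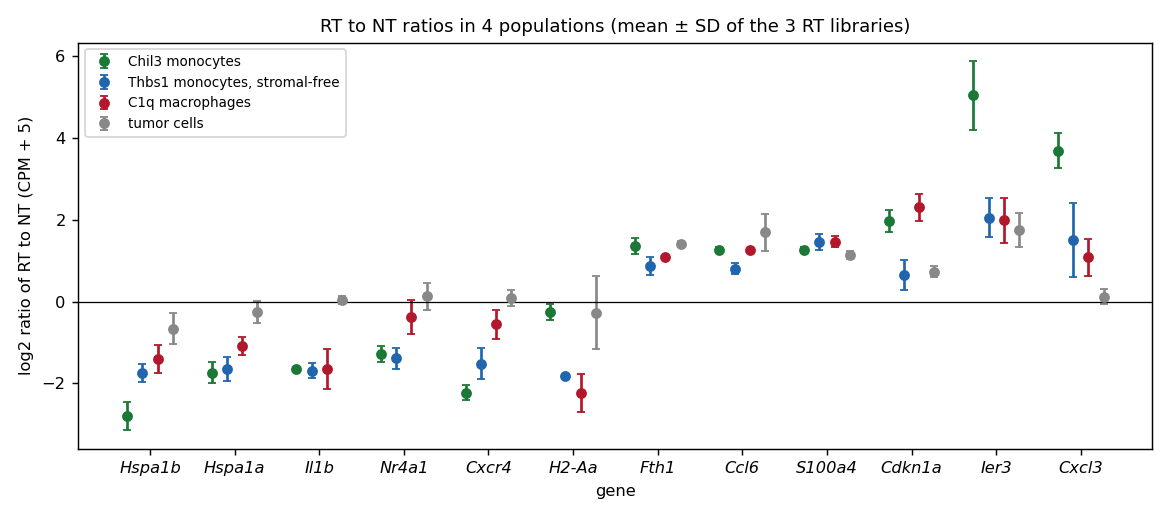
Mean log2 ratio of the 3 RT libraries to NT (CPM with 5 added, whiskers 1 SD over 3 libraries) for 12 genes in Chil3 monocytes, stromal-free Thbs1 monocytes, C1q macrophages and tumor cells. Il1b and Hspa1a lie below 0 in the 3 myeloid populations, Fth1 and S100a4 lie above 0 in all 4, and H2-Aa lies furthest below 0 in C1q macrophages.

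Chil3 monocytes held more Ifitm6 and less MHC class II RNA than the Thbs1 monocytes that lacked Chil3. The populations came from the same 4 libraries and were compared by edgeR's quasi-likelihood test on summed UMIs with the library as a block, a call needing an adjusted p under 0.05 (Benjamini-Hochberg) and a log2 fold change of at least 1. Of 6285 genes, 34 were higher in Chil3 monocytes (0.541%) and 323 lower (5.14%). Genes read by either gate were not tested, and a gate can also move genes that go with its own. The reference held stromal RNA, with all 5 fibroblast and all 4 endothelial markers higher there. The fibroblast list summed to 12720, 2455, 8481 and 13651 CPM in its NT, RT1, RT2 and RT3 sums and to 56.6, 142, 81.4 and 216 CPM in Chil3 monocytes, and Postn (log2 fold change -10.25) and Col1a1 (-8.78) led the lower genes.

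The comparison was therefore repeated, after the data were seen, with barcodes of both populations that held a Tyrobp or Fcer1g UMI and none of Col1a1, Col1a2 or Plvap. This left 22, 277, 368 and 614 Chil3 monocytes and 172, 447, 394 and 299 Thbs1 monocytes in NT, RT1, RT2 and RT3. Of 5823 genes, 26 were higher (0.447%) and 68 lower (1.17%). The calls shared with the unrestricted comparison numbered 72, and 21 of its called genes reversed sign.

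Ifitm6 was higher in Chil3 monocytes in all 4 libraries. This interferon-induced membrane gene of classical monocytes was 962, 492, 485 and 510 CPM there and 213, 209, 145 and 210 CPM in Thbs1 monocytes of NT, RT1, RT2 and RT3, so the groups did not overlap (edgeR log2 fold change 1.47, SE 0.123, adjusted p = 2.01e-20, and 1.20 without stromal barcodes). Mgst1, a membrane glutathione transferase, had 0.82 with all barcodes, under the threshold, and passed the test without stromal barcodes, where it was 368, 265, 232 and 235 CPM against 114, 71.6, 68.1 and 105 CPM. Hp, the hemoglobin scavenger haptoglobin, was low but higher (28.3, 43.5, 49.4 and 39.5 CPM against 20.8, 10.3, 12.3 and 14.1 CPM, log2 fold change 1.77). Of 15 classical monocyte markers tested, 5 were higher with all barcodes (among them Ifitm6, Gsr, F13a1 and Hp), where 0.541% of all genes were. The list median was 0.82 against -0.02 over all genes. Without stromal barcodes Gsr had 0.99 and F13a1, a transglutaminase, 0.80, both under the threshold.

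Smpdl3a and S100a8 were higher as well. Smpdl3a, a phosphodiesterase, was 594, 280, 292 and 307 CPM in Chil3 monocytes against 133, 104, 102 and 122 CPM (log2 fold change 1.46, SE 0.135). S100a8 was 0, 123, 340 and 132 CPM in Chil3 monocytes against 0, 16.1, 78 and 53 CPM, higher in the 3 libraries where it was detected (log2 fold change 2.05, SE 0.179, and 1.93 without stromal barcodes). Lcn2, the siderophore-binding lipocalin-2, had 2.70 with all barcodes, was too low to be tested without stromal ones, and was also at 0 in both populations of NT. Without the library as a block the S100a8 call was lost.

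MHC class II genes were lower in Chil3 monocytes. H2-Aa was 368, 287, 282 and 358 CPM there and 4541, 1570, 1575 and 1483 CPM in Thbs1 monocytes of NT, RT1, RT2 and RT3 (edgeR log2 fold change -2.48, SE 0.117, adjusted p = 1.99e-40). Every Thbs1 library stood well above the highest Chil3 library. H2-Eb1 had -2.97, H2-Ab1 -2.37 and the invariant chain Cd74 -1.77, lower in all 4 libraries. Of 7 genes tested, 6 were lower with and without stromal barcodes, where 5.14% and 1.17% of all genes were. The list medians were -1.77 and -1.99, and H2-DMa (edgeR log2 fold change -0.31, adjusted p = 0.425) did not pass. Of the 6, H2-DMb1 and H2-DMb2, which load peptide, rested on means of 17.0 and 7.54 CPM and lost the call under DESeq2. Dendritic cell markers were low in both populations. Their 9 genes summed to 198, 41.6, 39.7 and 78.0 CPM in Chil3 monocytes and to 291, 127, 105 and 116 CPM in Thbs1 monocytes, and the defining Xcr1, Clec9a and Siglech were at 0 in both. Of 2 tested, Itgax, an integrin that macrophages also carry and the most abundant in Thbs1 monocytes, was lower (-1.53, and -1.81 without stromal barcodes). The part of dendritic cells in the MHC class II difference was not tested.

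To show the genes that carry this difference, the starts of H2-Aa and H2-Eb1 are printed with GATTGG or its reverse complement CCAATC in capitals, the CCAAT box that is part of the conserved class II promoter and is bound by NF-Y. Both are from RefSeq (GRCm38.p6), H2-Aa at chr17:34287807-34287932 on the minus strand and H2-Eb1 at chr17:34305747-34305897 on the plus strand.
H2-Aa: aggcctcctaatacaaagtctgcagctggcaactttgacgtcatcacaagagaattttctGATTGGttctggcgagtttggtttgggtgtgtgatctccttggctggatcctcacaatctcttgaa
H2-Eb1: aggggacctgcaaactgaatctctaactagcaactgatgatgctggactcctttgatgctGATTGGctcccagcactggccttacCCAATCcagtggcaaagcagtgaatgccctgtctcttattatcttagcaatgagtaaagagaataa
H2-Aa holds 1 match and H2-Eb1 2, and 16.1% of RefSeq promoters hold at least 1 on either strand. Hspa1a and Hspa1b hold 1 each, and H2-Aa also holds 1 match to GAANNTTC.

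Lyz1, Mmp12, Cd36 and 4 of 16 chemokine ligands were lower as well, where 5.14% of all genes were lower with all barcodes. Lyz1, the second lysozyme gene, was 0, 13.2, 3.87 and 37.5 CPM in Chil3 monocytes against 80.6, 327, 159 and 175 CPM (-3.49, SE 0.221). Mmp12, the macrophage elastase, had -3.29 without stromal barcodes, and the scavenger receptor Cd36 had -2.13. The other lysozyme, Lyz2, had 0.71. Cxcl1 and Cxcl16 were lower with and without stromal barcodes. Cxcl9 (-1.25) and Ccl8 (-1.07) passed with all barcodes and had -0.01 and -0.19 without stromal ones, whereas Cxcl2 had -0.91 with all and passed without them (-1.11). Cxcl16 was 0, 11.3, 18.4 and 22.7 CPM in Chil3 monocytes against 112, 41.3, 82.1 and 44.1 CPM (-1.76, SE 0.256). Hspa1b was also lower (-1.36, SE 0.110), though without the library as a block that call was lost.

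Cytokine, interferon, cell cycle and MHC class I genes gave few or no calls between these monocytes. Of 18 cytokine and NF-kB genes, 0 were called by edgeR (9 at an unadjusted p under 0.05) and 0 by DESeq2, and Il1b was -0.22 without stromal barcodes (edgeR adjusted p = 0.0744). Of 29 interferon response genes, Ifit3b (just past the threshold) and Ly6a (-2.19) were lower with all barcodes, had -0.18 and -0.69 without stromal ones, and 0 passed in edgeR there (14 at an unadjusted p under 0.05), at medians of 0.19 and 0.23. With all barcodes 0 of 16 cell cycle genes, 0 of 11 MHC class I genes and 0 of 5 growth factor receptors were called by edgeR (3, 5 and 2 at an unadjusted p under 0.05) and 0 by DESeq2. Macrophage markers were lower in part. Of 13 tested, Apoe, Folr2, Pf4, Cd63 and Gpnmb were lower with all barcodes, where 5.14% of all genes were, and 4 without stromal ones, where 1.17% were. Without stromal barcodes Cd63 had -0.50 against -1.45 with all and no longer passed, and Apoe had -1.19. The calls of Apoe and Pf4 with all barcodes were lost without RT3, and that of Folr2 without RT1.

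**Figure D4:**
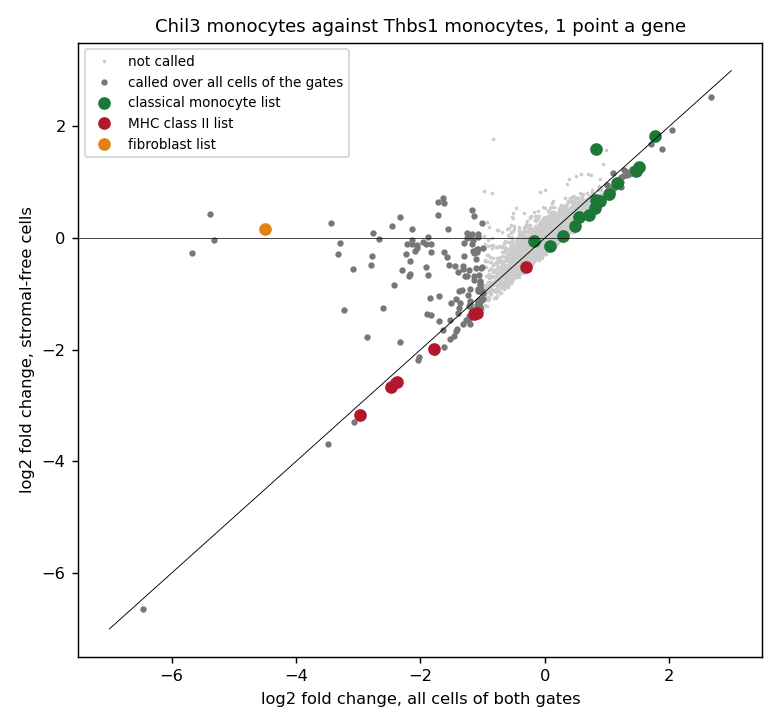
Log2 fold change of each gene between Chil3 and Thbs1 monocytes with all barcodes (horizontal axis) and with barcodes that held a myeloid and no stromal UMI (vertical axis), 1 point a gene, with the diagonal drawn. MHC class II genes lie below 0 on both axes and Ifitm6, of the classical monocyte list, above 0 on both.

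Against C1q macrophages the monocytes differed in many genes. Of 8261 genes tested by edgeR, 530 were higher (6.42%) and 915 lower (11.1%). Vcan, a matrix proteoglycan of monocytes, was 510, 1203, 705 and 1018 CPM in Chil3 monocytes against 19.2, 31.6, 35.1 and 33.8 CPM in macrophages of NT, RT1, RT2 and RT3 (log2 fold change 4.68, SE 0.156). Il1r2 was 113, 444, 301 and 309 CPM against 7.59, 7.55, 7.41 and 7.21 CPM (5.35, SE 0.159). No library of one population overlapped the other for either gene. Thbs1 (2.62), Fn1 (2.44), Cd44 (2.08) and Il1b (2.26) were higher by edgeR in all 4 libraries, as were the amplifying receptor Trem1 (3.09) and the protease inhibitor Slpi (3.38). Of 15 classical monocyte markers, 9 were higher and none lower, at a median of 2.31. F13a1 had -0.76 and Lyz2 -0.89, both short of the threshold.

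Markers of mature tissue macrophages were lower in the monocytes. Apoe was 0, 32.1, 32.0 and 26.6 CPM in Chil3 monocytes against 1203, 2110, 2914 and 3011 CPM (log2 fold change -6.63, SE 0.226). Ccl8, a monocyte-attracting chemokine, was 0, 81.3, 26.1 and 28.6 CPM against 1587, 6011, 4118 and 5558 CPM (-7.13, SE 0.234). The folate receptor Folr2 had -5.82 and the hyaluronan receptor Lyve1 -7.39. Of 16 macrophage markers, 14 were lower and none higher, at a median of -3.35, where 11.1% of all genes were lower and 6.42% higher. Of 16 chemokine ligands, 12 were lower and 2 higher (Cxcl3 and Ccl24). H2-Aa, H2-Ab1, H2-Eb1 and Cd74 were the 4 lower of 8 MHC class II genes. Of 15 p53 targets, 9 were lower, where 11.1% of all genes were. Among them were Cdkn1a (170, 756, 761 and 547 CPM against 310, 1371, 2032 and 1349 CPM, -1.30, SE 0.156), Mdm2, the p53 ligase (-1.37), and Gdf15 (-6.56). The Cdkn1a call was lost without the library as a block. The heme oxygenase Hmox1 (-2.28) and the iron exporter Slc40a1 (-5.92) were lower, and the glucose transporter Slc2a1 (1.21) and the receptor subunit Csf2rb (1.67) higher. Interferon response genes were split, with 6 of 31 higher (among them Slfn4, 2.81, and Zbp1) and 2 lower. Of all genes, 6.42% were higher and 11.1% lower.

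Against neutrophils the comparison was the weakest, since NT held 2 neutrophils with 1871 UMIs. Of 2206 genes, 291 were higher in Chil3 monocytes (13.2%) and 314 lower (14.2%) by edgeR, and 450 and 646 of 4534 with the 3 RT libraries alone. With library totals in place of TMM the split was 486 higher and 218 lower. S100a9 was 13896, 20677, 19299 and 14426 CPM in neutrophils of NT, RT1, RT2 and RT3 (log2 fold change -9.34, SE 0.874). Cxcr2 was 534, 551, 670 and 700 CPM there (-6.99, SE 0.423), and the histamine-forming enzyme Hdc had -6.74. All 8 neutrophil markers tested were lower in the monocytes. Chil1, the chitinase-like relative of Chil3, was 534, 456, 414 and 164 CPM in neutrophils and nearly absent in the monocytes (-9.14, SE 0.531). Higher in the monocytes were the scavenger receptor Msr1 (3.67), Ms4a6c (2.92), Lyz2 (2.79) and Vcan (2.78). Of 14 classical monocyte markers tested, 6 were higher and 4 lower (among them Ifitm6, Clec4e and Cd14).

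**Figure D5:**
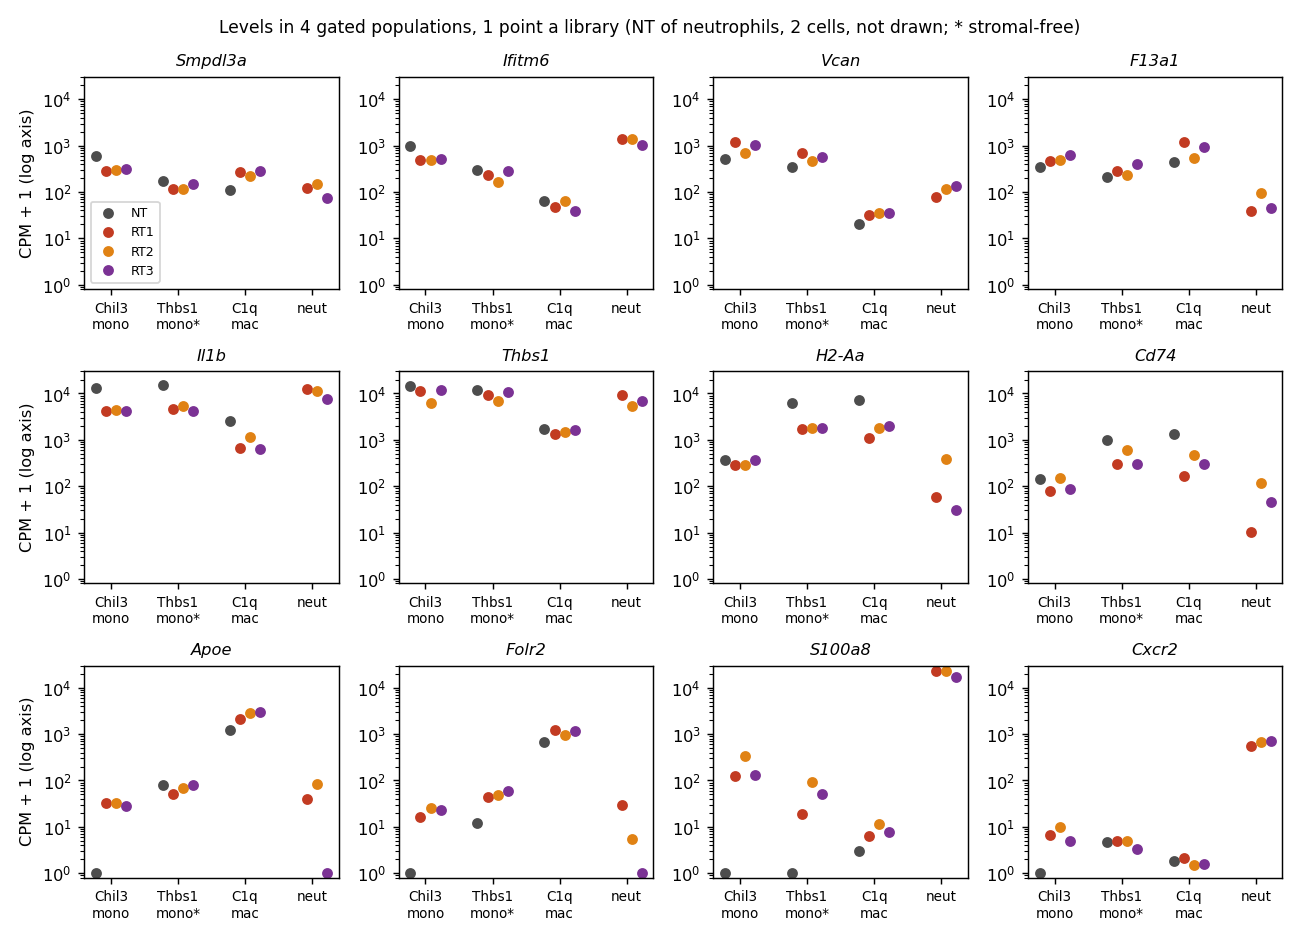
Levels of 12 genes (CPM with 1 added, log axis) in Chil3 monocytes, stromal-free Thbs1 monocytes, C1q macrophages and neutrophils, 1 point a library. Ifitm6 is higher in Chil3 monocytes than in Thbs1 monocytes in every library, H2-Aa and Cd74 are lower, and Apoe, Folr2 and Cxcr2 are lowest in the monocytes or near it.

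The monocytes were also counted cell by cell, each thinned to 1000 UMIs so that depth was equal, which left 18 cells in NT against 254, 358 and 490 in RT1 to RT3. A UMI of H2-Aa, H2-Ab1 or H2-Eb1 was found in 16.7% of Chil3 monocytes in NT and 13.4%, 15.9% and 14.1% in RT1 to RT3 (27.3%, 17.2%, 23.6% and 15% before thinning). The same share was 50.4%, 36.8%, 33.7% and 31.3% in Thbs1 monocytes. Tumor cells gave 4.11%, 1.72%, 7.72% and 2.26% at 1000 UMIs. Before thinning, at median depths of 8258, 6561, 9126 and 7074 UMIs, they gave 18.6%, 8.5%, 31.7% and 10.6%, in RT2 more than the monocytes. Expression by tumor cells and free RNA were not told apart in these shares. At 1000 UMIs the monocyte shares lay above those of tumor cells in the 3 RT libraries, while the NT interval (3.58% to 41.4%) held the tumor cell share.

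S100a8 or S100a9 was found in none of the NT cells and in 7.87%, 16.8% and 7.35% of RT cells (0%, 10.9%, 25.7% and 9.70% before thinning). The NT count allows a share with a UMI of up to 16.7% by a floor of 3 counts and 18.5% by the exact interval. The corresponding shares in tumor cells were 0.0505%, 0.227%, 0.611% and 0.229%. Cdkn1a was found in 11.1% of NT cells and in 49.2%, 46.6% and 39.2% of RT cells (18.2%, 65.6%, 74.5% and 50.7% before thinning), against 1.68% to 3.55% of tumor cells. At least 2 UMIs of 6 interferon genes (Ifit1, Ifit2, Ifit3, Isg15, Rsad2, Irf7) were found in 22.2% of NT cells (95% exact interval 6.41% to 47.6%) and 19.7%, 26.8% and 23.3% of RT cells (31.8%, 26.7%, 38.6% and 25.8% before thinning).

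Proliferation genes (Mki67, Top2a, Birc5, Ube2c) gave a UMI in none of the thinned NT monocytes (up to 16.7% by the same floor and 18.5% by the exact interval). The shares in RT1 to RT3 were 8.66%, 8.10% and 7.55% (0%, 13%, 13.9% and 11.9% in NT, RT1, RT2 and RT3 before thinning). In tumor cells, a cycling population, the share was 42.6%, 38.8%, 26.0% and 38.1%. No cycling is read from these shares, and the part of free tumor RNA in them was not tested.

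Within the RT libraries, cells with the most and the fewest Chil3 UMIs are set side by side as a description, since Chil3 defined the cells. Cells with 6 or more Chil3 UMIs among 1000 (29, 49 and 215 cells in RT1 to RT3) were set beside cells with 0 to 2 (109, 170 and 116), whose median depths before thinning differed by library (1931, 2228 and 1516 UMIs against 2046, 2912 and 2091). S100a8 was higher in the high cells in all 3 libraries, by 1.01, 1.81 and 1.80 on the log2 scale (20 CPM added). In RT1 the high cells were 29 of 1000 UMIs each, so ratios of low genes there rest on few UMIs. S100a8 had 12 UMIs in the low cells of RT1. The cells between, with 3 to 5, did not fall in order in RT1, where S100a8 was 110, 94.8 and 241 CPM and Hspa1a 1046, 1259 and 793 CPM from the lowest to the highest cells. Mgst1 (mean 0.82), Ifitm6 (0.73) and Ly6c2 (0.59) were higher in all 3. H2-Aa was lower by log2 ratios of -1.65, -1.20 and -1.77. H2-Ab1, Hmox1, Cxcl3, Hspa1a and Hspa1b were also lower in all 3 libraries, with means of -2.56, -1.22, -1.14, -0.89 and -0.69. H2-Ab1 had 0 UMIs in the high cells of RT1. Its ratio there, -4.76, rests on the 20 CPM added, against -0.80 and -2.12 in RT2 and RT3. Ifitm6, Mgst1, S100a8, H2-Aa and H2-Ab1 differed in the direction they took between Chil3 and Thbs1 monocytes, in cells that in part entered both comparisons. Both comparisons split cells by Chil3. Cd74 (0.27, -0.07 and -1.33), F13a1 (-0.58, 0.28 and 0.64) and Gsr (0.36, -0.07 and 0.55) kept no single direction, though called there with all barcodes. No tally over all called genes is given.

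The 3 irradiated tumors resembled each other in their monocytes. Across the 2835 genes, Pearson's r of log2 CPM was 0.953 between RT1 and RT2, 0.963 between RT1 and RT3 and 0.953 between RT2 and RT3, as a description, since genes are not independent. Genes 2-fold apart numbered 69, 46 and 93 for these pairs. RT2, the deepest library, had the highest S100a8 and the lowest Thbs1. Fos, an immediate early gene, was 7010, 9140 and 3770 CPM in RT1 to RT3 against 10218 CPM in NT, so RT3 stood apart from the others.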

How the data were processed

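Tumors were dissociated, and single cells were captured in microwells with a SeekOne MM 3′ kit. The deposited values are UMI counts per gene and barcode, and the paper states that its expression matrices came from SeekOne Tools. The submitters' processing notes also list STAR 2.5.1b, Subread 1.6.4, featureCounts and Cell Ranger, and the builds GRCm39 and mm39. Which tool made each deposited matrix is not given in the sources used here. The 3′ tags carry no length scaling, so levels of different genes were not ranked beyond their UMI counts. The members and gene lists were chosen with earlier results of these data known.

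Counts were summed per library and gated population over the 18596 genes shared by the 4 libraries and given as CPM. Populations were compared by edgeR 4.0.16 (quasi-likelihood, TMM, filterByExpr) in R 4.3.3 with the library as a block, because the populations of a library come from the same tumor or pool. NT and RT were compared by a size rule without a test. The deposited matrices had been called by the authors, and doublets were not removed here, with the top 8% of Scrublet scores (scanpy 1.11.5) left out as an alternative. Genes named were those of the gate, those of the lists, the 30 most abundant, and the 12 largest changes in each direction with a mean of at least 100 CPM. Some listed genes are not reported here. The analysis was tested on simulated data. Promoters were matched to RefSeq by symbol (GRCm38.p6), with no entry used for H2-Ab1, Hp or Gsr. PCR and capture were not modelled, and intervals cover counting error only. p-values measure the spread between these libraries.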

Additional observations from a re-analysis of the deposited data

How the results depend on the processing

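The depth of NT limits all comparisons with it, since 22 cells and 35328 UMIs put 50 CPM at 1.77 UMIs. The RT minus NT difference in share, 2.67 points, was 1.39 points with barcodes thinned to 2000 UMIs. The ratio of RT to NT was 28.6 with that thinning (19.0 to 40.5 by library, on 4 NT cells), against 13.1 without it. The difference was 5.70 over barcodes with at most 1 Rhox5 UMI, 9.40 over myeloid barcodes and 2.00 to 3.17 without each RT library in turn. Of genes past the size rule (360 higher, 126 lower), the lower count was 82 with Chil3 of at least 2 UMIs and 306 with at least 5. Thinning to 2000 UMIs gave 886 and 576, a mean of at least 20 CPM 1019 and 357, at least 100 CPM 143 and 51, and TMM 570 and 62. Outside the NT Poisson interval 68 and 72 remained, and 50 and 37 of 699 genes that reach 10 UMIs at the depth of NT, both chosen after the data were seen. Leaving out each RT library gave 398 to 416 higher and 156 to 177 lower. The log2 ratio of Bag3 reversed to 0.12 with Chil3 of at least 5 UMIs and to 4.99 after thinning to 2000 UMIs. That of Cks2 went to 3.41 after thinning. Thinning left 4 NT cells with 8000 UMIs, too few to decide a direction. The cause of the other changes was not tested.

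Against Thbs1 monocytes (34 higher, 323 lower), no filter on low counts gave 57 and 796 and stromal-free barcodes, chosen after the data were seen, 26 and 68. Leaving out each library in turn gave 28 to 46 and 270 to 406. The library pairs the populations by design, and without this replicate block 24 genes were higher and 235 lower. Without it the counts were 473 and 789 against C1q macrophages (530 and 915 with it) and 270 and 310 against neutrophils (291 and 314). Against macrophages, no filter gave 1373 lower, and leaving out each library 501 to 617 higher and 845 to 1018 lower. Against neutrophils, DESeq2 gave 197 lower, library totals 486 higher, RLE factors 487 higher, no filter 1096 and 501, and the RT libraries alone 450 and 646. Leaving out each library there gave 118 to 450 higher and 156 to 646 lower, with the lowest counts without RT1, and 186 lower without RT2. Of the values for named genes, 1527 alternatives counted as the same, 92 moved, 47 lost and 10 gained the call and 3 reversed. For NT and RT, the same meant a change in mean log2 ratio under the SD of the RT libraries. Staying past the size rule was not part of it. Between populations, the same meant that the call was neither lost nor gained. A reversal was counted only for called genes.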
